A study of Mus musculus with 4 samples.

Results

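The genes described here encode the machinery that fuses hormone granules with the plasma membrane, namely Stx1a, Snap25, Vamp2, Syt7, Sytl4, Rab3a, Rab27a, Rims2 and Cadps, 9 of the 32285 genes counted. They were taken by symbol for their known role in granule release, in a choice made with earlier results of these data known. Their counts were compared across islet cells grouped by dominant hormone and across 4 single-cell RNA-seq libraries. Islets came from male wildtype (WT) mice or littermates homozygous for a Pax4 knock-in allele (HH), both from crosses of heterozygotes on a C57BL6/N background. Mice were fed a standard chow diet (SCD) and studied at 12 weeks of age, or a high-fat diet (HFD) for 4 weeks and studied at 16 weeks. The allele was germline, so every islet cell carried it, and Pax4 itself is an endocrine lineage transcription factor. Each group (WT SCD, HH SCD, WT HFD, HH HFD) was 1 library made from the dissociated islets of 2 to 3 mice. Diet could therefore not be told apart from age, nor a group from its library.

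Hormone granules release their cargo when calcium enters the cell. The vesicle SNARE protein VAMP2 pairs with syntaxin 1A and SNAP-25 on the plasma membrane, and the coiled complex that forms pulls the membranes together. Before this, the GTPases RAB27A and RAB3A bring granules to the membrane through effectors such as granuphilin, the product of Sytl4, and RIM2, the product of Rims2. CAPS1, encoded by Cadps, primes docked granules, and synaptotagmin 7, encoded by Syt7, is a calcium sensor for their fusion. In pancreatic islets this machinery serves insulin release from β cells, and related proteins serve glucagon release from α cells and somatostatin release from δ cells.

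The 4 libraries held 22218 cell barcodes and 340006331 unique molecular identifiers (UMIs, each 1 captured transcript), between 68011082 and 104810105 UMIs a library. After the cell filters and doublet removal 12404 cells were used, which was 37.7% of the barcodes in WT HFD and 59.4% to 66.1% in the others. A cell was placed in a hormone class when 1 hormone supplied at least 60% of its hormone UMIs and at least 5% of all its UMIs. This gave 8070 β, 1579 α, 1062 δ and 516 pancreatic polypeptide (PP) class cells, with 70 to 2896 cells in any class of a library. Another 124 cells were mixed, and 303 cells lay near the hormone threshold. Depth differed between classes, with a median of 24159 to 29791.5 UMIs a cell in the β class and 7638 to 12460 in the δ class, and 5768 to 7079 in the 532 endothelial-like cells used as a background population. Insulin transcripts made up 54.3% to 55.8% of β class UMIs and 0.83% to 1.35% of α class UMIs, the latter a measure of RNA shared between droplets. Pairs of libraries shared 6 to 11 barcodes. Levels are in CPM, the UMI count of a gene relative to the total of its class and library, after TMM scaling, which corrects for the share that abundant genes take. The assay reads transcript ends, and levels were compared between classes and libraries but not between genes.

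All 9 genes passed the low-count filter of the edgeR quasi-likelihood fit, which compared the β class with each other class across the 4 libraries with library as a covariate. Against the α class, 8 of the 9 genes were called at an adjusted p below 0.05, 5 higher and 3 lower in β cells, where 60.6% of all 11675 genes tested were called, 31.4% higher and 29.2% lower. Against the δ class all 9 were called, 7 higher and 2 lower, with 59.9% of all genes called, 30.4% higher and 29.5% lower. Against the PP class, 8 of 9 were called, 5 higher and 3 lower, with 52.5% of all genes called, 27.7% higher and 24.8% lower. These directions are relative to the typical gene, since TMM scaling sets the median of all genes near 0 and insulin fills much of the β class total. On the plain share of each class total, chosen as an alternative after seeing the data, the median of all genes was -0.58 against α, -0.96 against δ and -0.29 against PP cells. On that scale 2 of the 9 genes were called higher and 4 lower in β than in α cells, 2 higher and 5 lower than in δ cells, and 3 higher and 4 lower than in PP cells. Of all genes, 11.1% were called higher and 66.4% lower against α cells on that scale, 5.76% and 82.1% against δ cells, and 14.5% and 42.5% against PP cells. Sytl4 was called higher against all 3 classes and Cadps against δ cells on both scales, and Stx1a and Rims2 lower against all 3. With TMM scaling the median log2 difference of the 9 genes was 0.51, 0.56 and 0.26 in these comparisons, and that of all genes tested was 0.01, 0.00 and 0.03. The size of the differences ranged widely among the 9 genes. By the fitted values Sytl4 was 58.9-fold to 78.3-fold higher in β cells than in the other classes, and Cadps was 30-fold higher in β than in δ cells. All other called differences were between 1.2-fold and 2.98-fold. The library term takes up differences between groups that all classes share. Effects of genotype, diet and age that differ between classes remain, with sampling, in the spread behind these p-values.

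**Figure D1:**
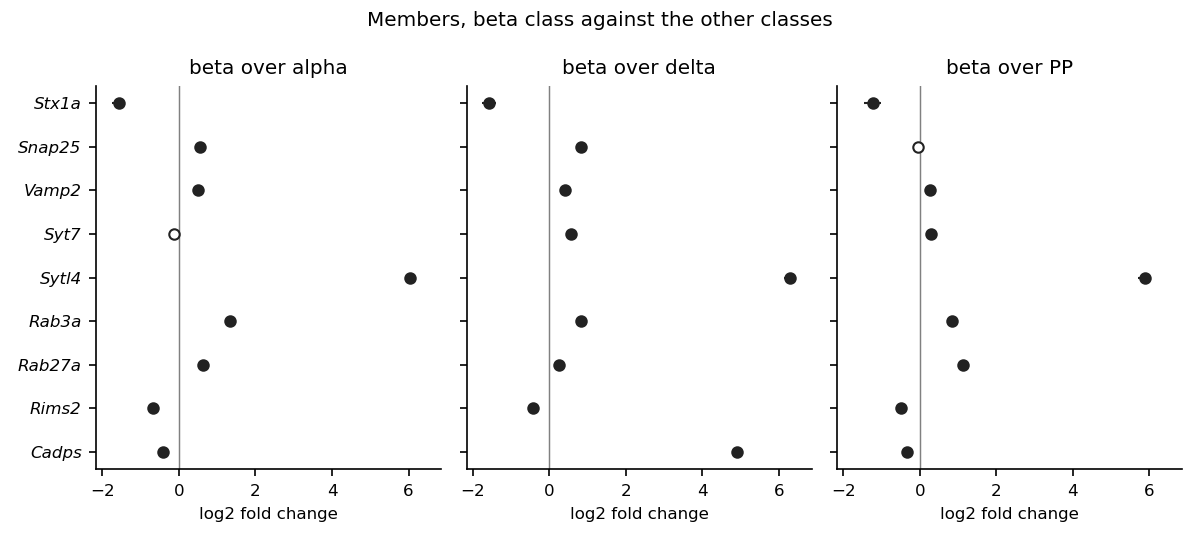
Fitted log2 difference (β class over α, δ or PP class) for each of the 9 genes. Bars are that difference divided by the square root of its F statistic, an approximate error. Filled points passed an adjusted p below 0.05 and open points did not. Sytl4 lies at 5.88 to 6.29 against every class and Cadps at 4.91 against the δ class, while all others lie between -1.58 and 1.33 and are relative to TMM scaling. On plain class totals the sign turns for Snap25 and Vamp2 against α and δ cells, Vamp2 and Syt7 against PP cells, and Syt7, Rab3a and Rab27a against δ cells.

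Sytl4 encodes granuphilin, an effector of RAB27A and RAB3A that docks insulin granules at the plasma membrane. The gene lies on the minus strand at chrX:133936385-133981812 of GRCm38. The 250 bases before its start, at chrX:133981813-133982062 (GRCm38.p6, minus strand), are shown because this gene separated β cells from every other class. RefSeq promoter sequences were at hand for 5 of the 9 genes, and a gene outside the 9 with a like pattern, Rims3 (chr4:120854549-120854798, plus strand), is set beside it. Capitals mark a CACCC box in Sytl4 and GC boxes (GGGCGG or its reverse complement CCGCCC) in Rims3.

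Sytl4: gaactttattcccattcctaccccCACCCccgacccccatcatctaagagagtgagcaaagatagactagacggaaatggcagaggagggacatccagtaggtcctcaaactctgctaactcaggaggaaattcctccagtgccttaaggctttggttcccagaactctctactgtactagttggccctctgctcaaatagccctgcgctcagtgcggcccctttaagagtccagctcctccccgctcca

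Rims3: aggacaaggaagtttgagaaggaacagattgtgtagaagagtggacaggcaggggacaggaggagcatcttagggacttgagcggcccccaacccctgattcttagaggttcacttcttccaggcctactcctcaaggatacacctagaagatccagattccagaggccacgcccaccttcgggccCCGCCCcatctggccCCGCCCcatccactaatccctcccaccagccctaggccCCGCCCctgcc

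The Sytl4 window held 1 CACCC match, which 52.0% of the 32851 promoters in the RefSeq table also hold at least once. The Rims3 window held 3 GC boxes, found in 32.7% of all promoters. Neither held TGCTGA, a core bound by MAF factors (16.1% of all promoters), TAATTA, the homeodomain core (4.84%), TATAAA (12.4%) or the cyclic AMP response core TGACG (17.8%). The E-box pattern CANNTG, found in 66.2% of all promoters, occurred 1 time in Rims3 and did not occur in Sytl4. All motifs were searched on both strands, and matches are descriptions of these letters only. GC content was 53.2% in Sytl4 and 59.6% in Rims3, with a median of 52.4% over all promoters.

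In β cells the Sytl4 level was 149 CPM in WT and 148 in HH under SCD and 146 in WT and 130.1 in HH under HFD. In α cells it was 2.35, 1.99, 2.08 and 2.28 CPM with libraries in that order, in δ cells 1.98, 1.19, 2.81 and 1.55 CPM, and in PP cells 4.13, 1.47, 0.638 and 3.06 CPM. No β class value overlapped with any other class, and the 3 non-β classes overlapped with each other. By edgeR the log2 difference was 6.03 ± 0.14 over α cells (adjusted p = 1.92e-18), 6.29 ± 0.15 over δ cells (adjusted p = 8.75e-18) and 5.88 ± 0.17 over PP cells (adjusted p = 2.5e-16). Values after ± are throughout the log2 difference divided by the square root of its F statistic. They are not fitted standard errors and can understate the error where a class has few UMIs. The non-β levels rested on few molecules, with 46 Sytl4 UMIs in α, 27 in δ and 19 in PP cells against 21777 in β cells. They were set against shared RNA in droplets. Unscaled α class values were 2.05% to 2.77% of the β level for Sytl4 and 1.51% to 2.48% for insulin. In δ cells the shares were 1.56% to 3.76% for Sytl4 and 2.02% to 2.99% for insulin, and in PP cells 0.566% to 3.26% and 1.19% to 2.74%, with Sytl4 above insulin in some libraries and below it in others. Endothelial-like cells, which have no hormone granules, held 3.65 to 5.58 unscaled CPM of Sytl4. With every cell thinned to 3000 UMIs, a Sytl4 UMI was found in 23.7% to 29.1% of β cells, 0.727% to 1.30% of α cells and 0.893% to 2.63% of endothelial-like cells. Unthinned, the share was 81.1% to 90.2% of β cells and 2.46% to 3.64% of α cells. The unscaled Sytl4 level of α, δ and PP cells was in every library below that of endothelial-like cells. In the latter it rested on 4, 2, 6 and 7 UMIs in WT SCD, HH SCD, WT HFD and HH HFD, with overlapping counting intervals. Whether endothelial-like cells express Sytl4 themselves was not tested, and the fitted folds depend on the low levels outside the β class.

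**Figure D2:**
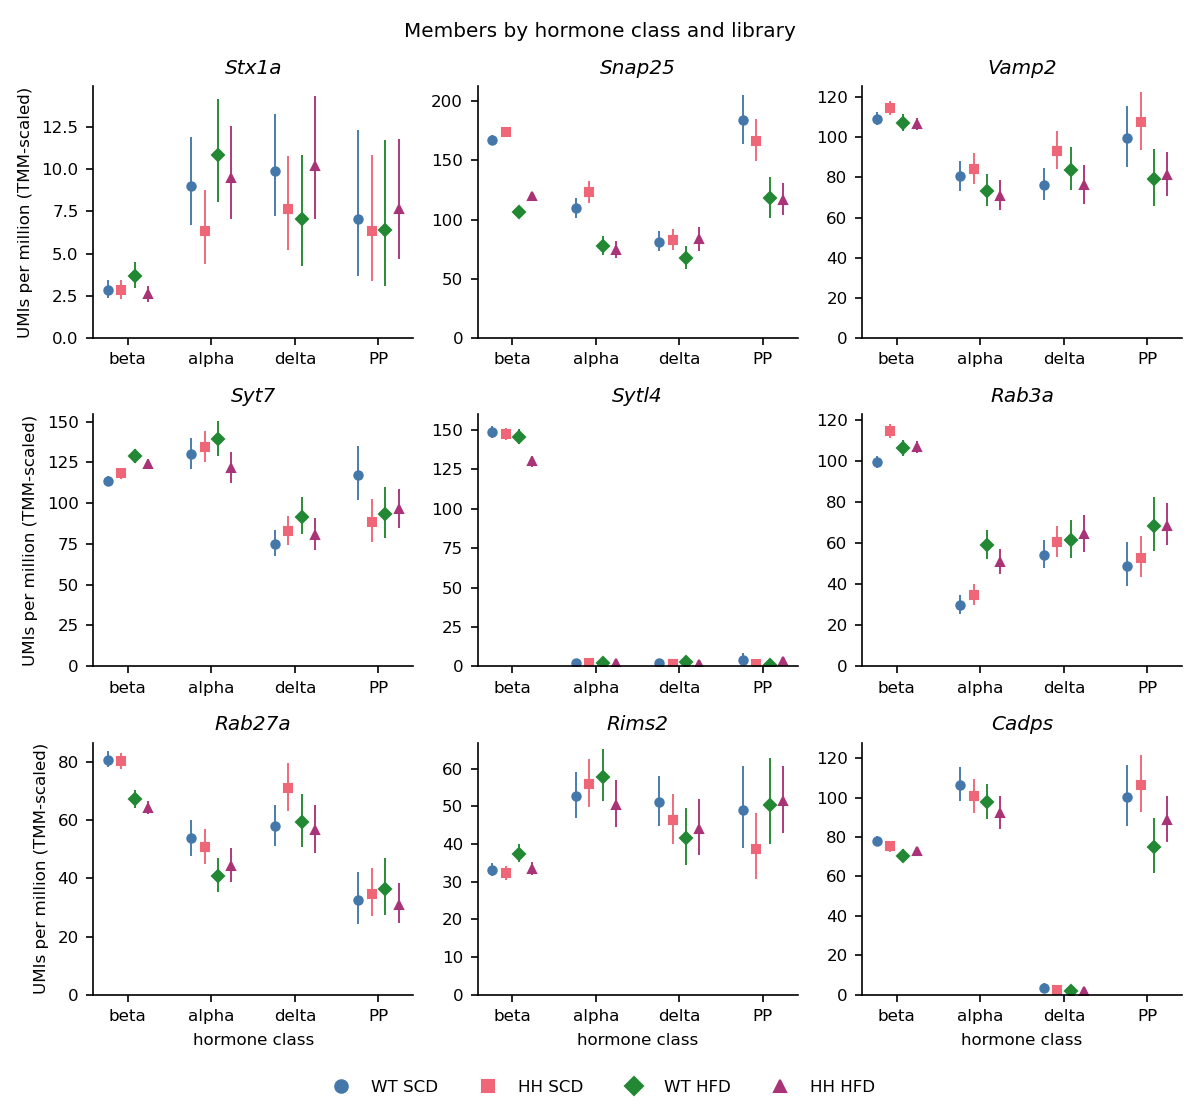
Level of each of the 9 genes in CPM (TMM-scaled) by hormone class, with 1 point per library and bars for 95% exact Poisson intervals, which cover counting error only. Sytl4 is near 0 outside the β class, Cadps is near 0 in the δ class, and Stx1a is lowest in the β class.

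Cadps encodes CAPS1, which primes docked dense-core granules. It lies on the minus strand at chr14:12372563-12823079, and an antisense gene inside it, Gm48239, had 10 UMIs over the classes. Its upstream 250 bases (chr14:12823080-12823329, GRCm38.p6, minus strand) are shown because the gene was near absent from 1 endocrine class. Capitals mark CCAAT boxes.

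Cadps: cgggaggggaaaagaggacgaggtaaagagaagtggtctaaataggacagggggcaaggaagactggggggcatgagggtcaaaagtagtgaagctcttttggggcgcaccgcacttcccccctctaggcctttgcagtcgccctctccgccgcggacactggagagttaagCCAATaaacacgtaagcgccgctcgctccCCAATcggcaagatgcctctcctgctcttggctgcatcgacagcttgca

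This window held 2 CCAAT matches, a motif present in 33.8% of all promoters, and its GC content was 58%. The Cadps level in β cells was 77.9 CPM in WT and 75.3 in HH under SCD and 70.3 in WT and 72.7 in HH under HFD. In δ cells it was 3.53, 2.38, 1.76 and 1.86 CPM in the same order. The lowest α class value was 92.1 CPM and the lowest PP value 74.7 CPM, so the δ class stood apart from all others, while β and PP values overlapped. Compared with β cells, Cadps was 30-fold lower in δ cells (log2 of β over δ 4.91 ± 0.13, edgeR adjusted p = 4.56e-17) and 1.34-fold higher in α cells (adjusted p = 3.36e-05). It was also higher in PP than in β cells (log2 of β over PP -0.32 ± 0.08, adjusted p = 0.0019). The δ class value was 4.88% to 8.36% of the β value before scaling, above the 2.02% to 2.99% found for insulin there, and rested on 37 UMIs. Thinned to 3000 UMIs, 13.3% to 16.3% of β cells, 23.3% to 29.2% of α cells and 0% to 1.09% of δ cells had a Cadps UMI. No thinned endothelial-like cell had one, which at that depth allows a share of up to 1.58% to 3.53% by library, while unthinned they held 0 to 2 Cadps UMIs a library. The same holds for δ cells of WT HFD, with none after thinning (up to 1.94%) and 5 UMIs before. Its paralogue Cadps2 was measured at 8.66 to 13.1 CPM in δ cells and 5.97 to 6.97 CPM in β cells.

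Snap25 (chr2:136713453-136782428, plus strand) encodes the plasma membrane SNARE that supplies a pair of helices to the fusion complex. Its β class level was 167 CPM in WT and 174 in HH under SCD and 107 in WT and 119.6 in HH under HFD, and all 4 classes overlapped with a neighbour in the order of mean levels. With library as a covariate it was 1.47-fold higher in β than in α cells (edgeR adjusted p = 2.18e-05) and 1.78-fold higher than in δ cells (adjusted p = 2.13e-07), with log2 values of -0.03 and -0.14, neither called, on plain class totals. Against PP cells the log2 difference was -0.05 ± 0.09 (adjusted p = 0.711), and its sign turned with library sizes taken without hormone and mitochondrial genes, while on plain class totals it was called lower in β cells (-0.36, adjusted p = 0.0051). Vamp2 (chr11:69088490-69092384, plus strand), the granule SNARE, had β class levels of 109 in WT SCD, 115 in HH SCD and 107 CPM in both HFD libraries. Vamp2 was 1.42-fold higher in β than in α cells (adjusted p = 2.68e-06), 1.33-fold higher than in δ cells (adjusted p = 4.37e-05) and 1.2-fold higher than in PP cells (adjusted p = 0.00685). The PP call for Vamp2 was lost without either HFD library (adjusted p = 0.0644 without WT HFD and 0.0537 without HH HFD) and without the library term (0.0502). On plain class totals Vamp2 was lower in β than in δ cells (log2 -0.55, adjusted p = 4.31e-07), and its values against α (-0.08) and PP cells (-0.06) were not called. Endothelial-like cells carried 43.1 to 60.2 unscaled CPM of Vamp2 but at most 5.25 of Snap25.

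Stx1a (chr5:135023482-135051100, plus strand) encodes syntaxin 1A, the other plasma membrane SNARE, and was lowest in β cells. It stood at 2.86 CPM in WT and 2.82 in HH under SCD and 3.69 in WT and 2.58 in HH under HFD in the β class, 6.32 to 10.8 CPM in the α class, 7.03 to 10.2 CPM in the δ class and 6.35 to 7.66 CPM in the PP class. The β class values lay below every value of the other classes. By edgeR, Stx1a was 2.98-fold lower in β than in α cells (adjusted p = 6.49e-08), 2.97-fold lower than in δ cells (adjusted p = 2.4e-07) and 2.35-fold lower than in PP cells (adjusted p = 0.000155). These folds depend on the scaling, with log2 differences of -2.16, -2.53 and -1.55 in that order on plain class totals. Before scaling, the β class held 1.75 to 2.75 CPM, below the 4.78 to 9.12 CPM of endothelial-like cells. The latter rested on 5 or 6 UMIs a library, and its counting interval overlapped that of β cells in both HFD libraries. On that scale PP cells held 5.45 to 7.20 CPM, α cells 6.91 to 11.6 CPM and δ cells 10.2 to 14.6 CPM. Thinned to 3000 UMIs, 0.602% to 0.863% of β cells and 0.526% to 3.57% of endothelial-like cells had a Stx1a UMI, against 4.18% to 7.71% and 2.63% to 5.88% unthinned. For the other 8 genes the share of β cells exceeded that of endothelial-like cells in all 4 libraries.

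Syt7 (chr19:10389090-10453180, plus strand), the calcium sensor, was measured at 114 CPM in WT and 118 in HH under SCD and 129 in WT and 124 in HH under HFD in β cells. It was 1.47-fold higher than in δ cells (edgeR adjusted p = 5.95e-06) with TMM scaling and lower on plain class totals (log2 -0.41, adjusted p = 6.5e-05). The difference from α cells did not pass the test (log2 -0.12 ± 0.08, adjusted p = 0.196) with TMM scaling, turned to 0.04 with library sizes without hormone and mitochondrial genes, and was called lower on plain class totals (-0.71, adjusted p = 5.03e-08). Against PP cells Syt7 was 1.23-fold higher (adjusted p = 0.00647), in 3 of 4 libraries, and this call was lost without HH SCD (adjusted p = 0.0562) or WT HFD (0.0626) and on plain class totals (log2 -0.03). Of the 11 other calcium sensors tested, with TMM scaling, 5 were higher and 4 lower against α cells. Against δ cells 4 were higher and 5 lower, and against PP cells 5 were higher and 1 lower. Of all genes, 60.6%, 59.9% and 52.5% were called in these comparisons. The median log2 differences of the 11 were 0.21, 0.18 and 0.38. Syt1, which serves fast release at synapses, was at 65.0 to 69.3 CPM in δ cells and 0.79 to 0.85 CPM in β cells. Syt4 and Syt13 were higher in β cells than in α cells, by a log2 difference of 1.54 ± 0.09 and 1.15 ± 0.07.

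Rab3a (chr8:70754679-70758677, plus strand) and Rab27a (chr9:73044854-73097629, plus strand) encode granule GTPases. Rab3a overlaps Mpv17l2 on the opposite strand, which had 1995 UMIs over the classes. The Rab3a level in β cells was 99.4 CPM in WT and 115 in HH under SCD and 106 in WT and 107 in HH under HFD, and in α cells 29.97, 34.8, 58.9 and 50.6 CPM. All β values on this scale lay above the highest value of any other class, 68.6 CPM in PP cells. Rab3a was 2.51-fold higher in β than in α cells (edgeR adjusted p = 1.96e-09), 1.78-fold higher than in δ cells (adjusted p = 1.72e-06) and 1.81-fold higher than in PP cells (adjusted p = 5.88e-06). On plain class totals the δ difference was -0.13 and not called, while the others were called in the same direction. Rab27a was measured at 81.0 CPM in WT and 80.4 in HH under SCD and 67.2 in WT and 64.3 in HH under HFD in β cells. It was 1.54-fold higher than in α cells (adjusted p = 3.69e-07) and 2.18-fold higher than in PP cells (adjusted p = 2.91e-09). Its 1.2-fold difference from δ cells (adjusted p = 0.00572) was lost without WT SCD (adjusted p = 0.0887) and without the library term (0.0517). On plain class totals Rab27a was lower in β than in δ cells (log2 -0.71, adjusted p = 6.11e-07), and its value of 0.03 against α cells was not called.

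Rims2 (chr15:39198261-39684372, plus strand) encodes RIM2, a scaffold that links granule RAB3 to calcium channels and priming factors. It was lower in β cells, at 33.2 CPM in WT and 32.2 in HH under SCD and 37.4 in WT and 33.4 in HH under HFD, than in α cells, at 50.4 to 57.9 CPM, δ cells, at 41.5 to 51.1 CPM, or PP cells, at 38.6 to 51.3 CPM. The β values lay below all others. The log2 difference by edgeR was -0.67 ± 0.08 against α cells (adjusted p = 2.99e-07), -0.44 ± 0.08 against δ cells (adjusted p = 0.000152) and -0.48 ± 0.10 against PP cells (adjusted p = 0.00026). On plain class totals these differences were larger, at -1.26, -1.40 and -0.80 in that order.

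Genes related to the 9 were tested in the same fit. Of 85 further genes of the secretory apparatus, 70 passed the low-count filter, with 29 higher and 19 lower in β than in α cells, 30 higher and 22 lower than in δ cells, and 27 higher and 17 lower than in PP cells. The share called was 68.6%, 74.3% and 62.9%, beside 60.6%, 59.9% and 52.5% of all genes. On plain class totals the split against α cells was 11 higher and 45 lower, against δ cells 9 and 57, and against PP cells 17 and 25, or 80%, 94.3% and 60% called beside 77.6%, 87.9% and 57% of all genes, so the following directions are those with TMM scaling. Among 11 tested SNARE proteins, 4 were higher and 1 lower in β than in α cells, Snap23 (log2 0.84 ± 0.09) leading the former. Of 15 tested SNARE regulators and priming factors, 8 were higher and 6 lower in β than in δ cells, among them Stxbp5l, a tomosyn family inhibitor of SNARE assembly, at 94.1 to 163 CPM in δ and 3.42 to 15.6 CPM in β cells. Of 11 calcium sensors, 5 were higher and 4 lower than in α cells, and of 9 exocyst subunits, which tether vesicles, 3 were higher and 3 lower. Among 9 active zone scaffolds, 3 were higher and 2 lower than in α cells. They included Rims3, a short RIM protein, at 35.9 to 45.3 CPM in β and 0.38 to 1.44 CPM in α cells (log2 5.62 ± 0.20, edgeR adjusted p = 4e-15), and Pclo, at 163 to 176 CPM in β and 19.6 to 23.3 CPM in α cells.

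Of 15 tested Rab GTPases and effectors, 8 were higher and 5 lower in β than in α cells. Sytl2, the relative of Sytl4, was at 7.76 to 15.8 CPM in α and 6.49 to 16.1 CPM in PP cells, with 12 UMIs in β cells and 0 in δ cells. Rab27b was at 6.86 to 16.4 CPM in α and 0.157 to 0.451 CPM in β cells. Rab3c reached 43.3 to 57.0 CPM in α and 0.98 to 1.252 CPM in β cells, Rab3d 76.2 to 123 CPM in β and 14.7 to 18.4 CPM in α cells, and Rab3b 107 to 126 CPM in δ and 12.1 to 23.0 CPM in β cells. These α against β differences of Sytl2, Rab27b, Rab3c and Rab3d all passed the edgeR test with TMM scaling.

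**Figure D3:**
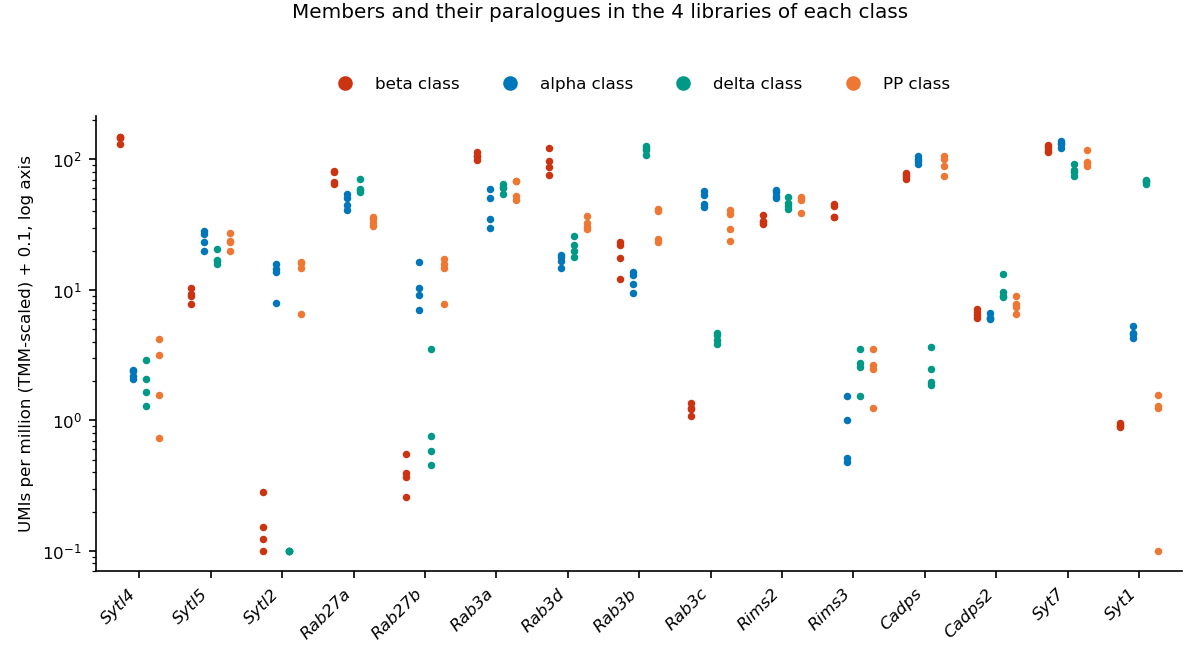
Levels of the 9 genes' relatives by hormone class on a logarithmic axis, in CPM with 0.1 added so that 0 can be drawn and 1 point per library. Sytl2, Rab27b and Rab3c lie above 6 CPM in the α and PP classes and below 2 CPM in the β class, and Rims3 shows the opposite order.

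Genotype was compared within each diet with 1 library per group, so no test was made. A log2 ratio of HH over WT is given with a 95% counting interval, and a gene with a mean of at least 5 CPM was called past the threshold when its log2 ratio exceeded 0.32 in either direction. In β cells under SCD, 0 of the 8 counted genes passed this threshold, where 3.45% of all counted genes did. The ratios ran from -0.05 to 0.21 on the log2 scale, with a median of 0.02, and the highest was Rab3a at 0.21 (0.14 to 0.27). Stx1a was below the minimum in β cells, Sytl4 in the other classes and Cadps also in δ cells, and these were not counted. Under HFD, 0 of 8 passed, where 12.9% of all counted genes did. Sytl4 was at -0.17 (-0.22 to -0.11) and Rims2 at -0.16 (-0.28 to -0.05), both lower in HH HFD, and Snap25 at 0.16 (0.10 to 0.23). In the β sub-cluster shared by both HFD libraries, described further on, Sytl4 was at 157 CPM in HH and 152 in WT and Rims2 at 37.5 CPM in each, while Snap25 was at 119 CPM in HH and 107 in WT. Stx1a had a ratio of -0.51 (-0.91 to -0.11) from 126 UMIs in HH HFD and 94 in WT HFD. The intervals cover counting error only, not the spread between mice.

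The same threshold was applied in the smaller classes. In α cells Stx1a was the only 1 of 8 past it under SCD (log2 -0.51, -1.18 to 0.14, with 15.9% of all counted genes past the threshold), and 0 of 8 passed under HFD (19%). In δ cells Stx1a was again the only 1 of 7, lower in HH under SCD (-0.38, against 19.8% of all genes) and higher under HFD (0.54, against 27.1%). In PP cells 2 of 8 were lower in HH under SCD (35.3%), Syt7 at -0.41 (-0.71 to -0.11) and Rims2 at -0.34 (-0.81 to 0.12), and 0 of 8 passed under HFD (35%). Each of these shares lay at or below the background, and the intervals of Stx1a in α cells and in δ cells under both diets (-1.08 to 0.31 and -0.31 to 1.42) span 0. The δ value under SCD was 0.028 when the dominant hormone had to supply 80%.

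**Figure D4:**
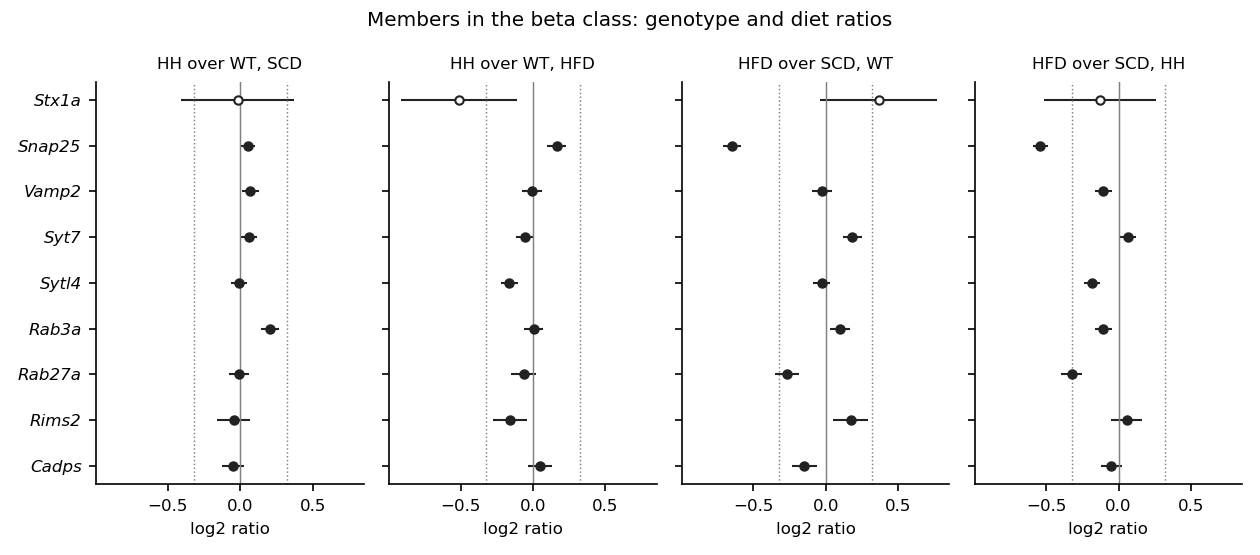
Log2 ratios in the β class for the 9 genes, HH over WT within each diet and HFD over SCD within each genotype, with bars for 95% counting intervals and dotted lines at the threshold of 0.32 in either direction. Open points lie below the minimum level of 5 CPM. Snap25 is the only filled point past a dotted line, in both diet comparisons.

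Diet was compared within each genotype, with age differing alongside. Cells were clustered without integration of the libraries, and cells of a class lay apart by diet, which here cannot be told apart from library. The β sub-clusters of 1580 and 2001 cells held 1 or 2 cells of either HFD library, and one of 2277 cells held 1020 and 1198. In α cells a cluster of 807 cells held 364 and 436 cells of the SCD libraries and 4 and 3 of the HFD libraries, so diet ratios compare largely separate groups of cells. In β cells 1 of 8 counted genes passed the threshold in WT (22.4% of all counted genes did) and 1 of 8 in HH (26.2%), in each case Snap25, which in HH was within 1.5-fold. Rab27a in HH lay on the threshold, at -0.32, and was not counted. Snap25 was lower under HFD by a log2 ratio of -0.65 (-0.71 to -0.58) in WT and -0.54 (-0.59 to -0.49) in HH. It was lower in α cells too, at -0.49 (-0.68 to -0.30) in WT and -0.73 (-0.91 to -0.55) in HH, and in PP cells at -0.64 (-0.91 to -0.37) and -0.51 (-0.74 to -0.29). In δ cells the ratios were -0.27 (-0.53 to -0.01) and 0.01 (-0.23 to 0.24). A class-by-diet interaction in edgeR, with library as a block and 2 libraries a diet, gave no call for Snap25 against any class, with a log2 difference between the β and δ effects of -0.47 ± 0.13 (adjusted p = 0.109). Rab27a was lower under HFD in β cells, at -0.27 (-0.35 to -0.18) in WT and -0.32 (-0.39 to -0.25) in HH. In α cells 3 of 8 counted genes passed in WT (37.3% of all counted genes did) and 3 of 8 in HH (37.7%), Snap25 and Rab3a among them in both. In δ cells it was 1 of 7 in WT (38.8%) and 2 of 7 in HH (38.5%), and in PP cells 5 of 8 in WT (47.9%) and 4 of 8 in HH (43.7%).

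Immediate early genes, which respond to stimulation and to handling, also moved with diet. Their summed level over 9 genes, a list made after values were seen, was 4710 CPM in WT and 5292 in HH under SCD and 3433 in WT and 2354 in HH under HFD in β cells. In the other classes the sum was higher under HFD, at 3461, 4498, 7778 and 8113 CPM in α cells, 4277, 6035, 10755 and 7546 CPM in δ cells and 2712, 3530, 8576 and 9666 CPM in PP cells, in the same order. Nr4a1 alone, named after its values were seen, was lower under HFD in all 4 classes and both genotypes. In δ cells of HH, where the Snap25 ratio was 0.01, Nr4a1 was at 101 CPM under SCD and 40.8 CPM under HFD. The part of these genes' stimuli in the Snap25 difference was not tested.

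The diet ratio of Rab3a differed between α and β cells. In α cells Rab3a was higher under HFD, at a log2 ratio of 0.98 (0.69 to 1.26) in WT and 0.54 (0.27 to 0.81) in HH, while in β cells it was at 0.10 (0.03 to 0.17) and -0.10 (-0.16 to -0.05). In PP cells it was at 0.48 (0.05 to 0.91) in WT and 0.38 (0.02 to 0.74) in HH. Without the β class cells in clusters left unnamed by the naming rule, which were 820 of 2039 cells in WT SCD and 11 of 1142 in WT HFD, the WT value was -0.03. Most of these cells lay in a cluster that met 9 of 9 β markers and was led by Mt2 and Nr4a1. The interaction passed the edgeR test for β against α cells (-0.76 ± 0.12, adjusted p = 0.000537), as did 3.34% of all genes. It did not pass against PP cells (-0.44, adjusted p = 0.123, with 1.85% of all genes called) or δ cells (-0.14, adjusted p = 0.718, with 0.925% called). The Rab3a level of endothelial-like cells was also higher under HFD, at 40.1 and 39.1 unscaled CPM against 22.3 and 20.1 CPM under SCD. Whether the α class difference shares a source with that of endothelial-like cells was not tested.

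Of the 85 further genes, 57 were counted in the β class diet comparisons, with 5 higher and 9 lower under HFD in WT and 6 higher and 13 lower in HH, or 24.6% and 33.3% beside 22.4% and 26.2% of all counted genes. Stxbp5l was lowest under HFD, at a log2 ratio of -1.34 in WT and -1.95 in HH, and Exoc7, Syt4 and Rab3b were lower in both genotypes, while Rab3d was higher (0.35 and 0.50). Between genotypes under HFD, 3 of 56 were higher and 5 lower in HH (14.3%, beside 12.9% of all counted genes), among them Baiap3, a relative of the priming factor MUNC13, at -0.65. Under SCD only Rims3 passed the threshold among 57, at -0.34 (1.75%, beside 3.45% of all counted genes).

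Within the β class, cells were divided into sub-clusters without use of the 9 genes, the related genes or hormones and without integration of the libraries. Levels were read per library as a description, scaled by the TMM factor of the library's whole β class. A sub-cluster of 420 cells, led by Pyy, Rbp4, Tspan8, Sst and Ppy, held 136, 131, 57 and 96 cells of WT SCD, HH SCD, WT HFD and HH HFD. Its Sytl4 level was 63.1, 82.7, 53.2 and 48.2 CPM in that order, below the 146 to 162 CPM of the sub-clusters of 1580, 2001 and 2277 cells. Its Cadps level was 118, 156, 105 and 129 CPM, above the 67.2 to 80.5 CPM of the 4 larger sub-clusters. Mafa, a transcription factor of mature β cells, was at 115, 135, 88.6 and 73.1 CPM there and at 438 to 565 CPM in those 3 sub-clusters. Insulin made up 44.2% to 48.7% of its UMIs against 52.9% to 57.6% in the larger ones. No scaling factor was fitted per sub-cluster, so a lower insulin share by itself raises the level of other genes. The share of doublets with other endocrine cells in this sub-cluster was not tested. A sub-cluster of 1449 cells held 1422 cells of HH HFD and was led by Serpina7, Aldh1a3, Dapl1 and Gc. In HH HFD, its Sytl4 level was 119 CPM against 157 CPM in the sub-cluster of 2277 cells that held most other HFD cells, its Syt7 level 115 against 138 CPM and its Mafa level 178 against 476 CPM, with Snap25 at 119 CPM in both. Under SCD the sub-clusters of 2001 and 1580 cells differed in Rab3a, at 85.9 against 115 CPM in WT and 94.97 against 130.4 CPM in HH, and in Syt7, at 130 against 94.5 CPM and 141 against 98.2 CPM. As the sub-clusters were drawn from the same cells, none of these differences was tested.

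**Figure D5:**
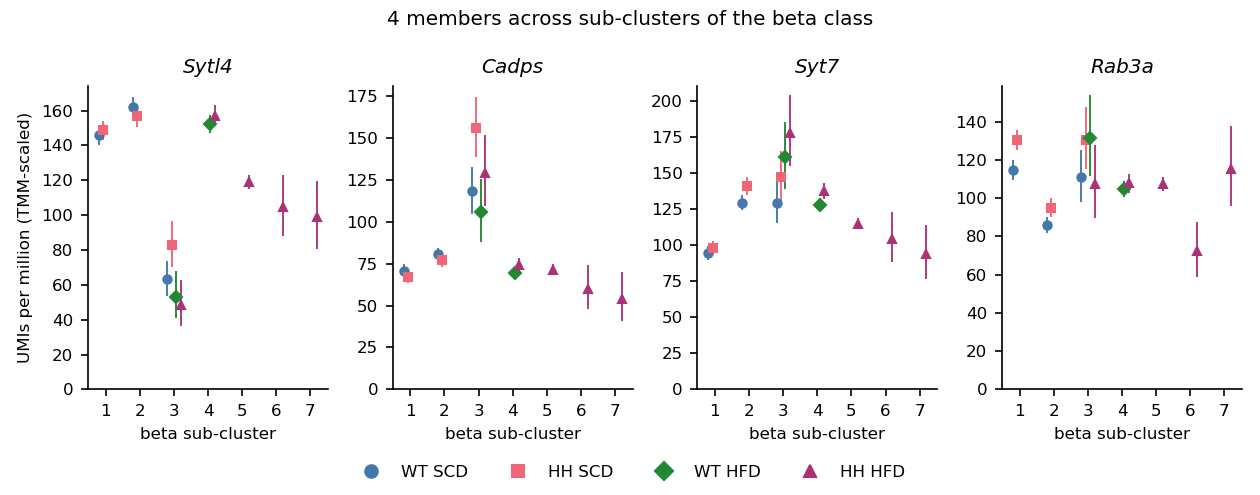
Levels of Sytl4, Cadps, Syt7 and Rab3a in CPM by sub-cluster of the β class, with 1 point per library with at least 50 cells in the sub-cluster and bars for 95% exact Poisson intervals. The sub-cluster of 420 cells has the lowest Sytl4 and the highest Cadps of the 5 largest, in libraries of both diets.

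Across the 16 class sums, the genes whose log2 levels most resembled the mean pattern of the 9, among 11596 genes, were Rhobtb1 (Pearson r = 0.966), mt-Co3 (0.965), Pde8a (0.962), Supt5 (0.961) and mt-Co2 (0.957). Within the 9, Stx1a and Sytl4 had r = -0.90 and Stx1a and Rims2 r = 0.85. These values describe sums that share libraries and hormone class, and carry no test.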

How the data were processed

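Islets of 4 groups were profiled by droplet single-cell RNA-seq, 1 library a group. The authors aligned reads to the mouse genome (mm10) with Cell Ranger 6.0 and deposited filtered UMI counts per gene and cell, with no normalization. Gene positions are from GENCODE M21 on GRCm38 and promoters from RefSeq. Cells with 3000 to 50000 UMIs, 2000 to 5000 genes and under 10% mitochondrial UMIs were kept, and the cells with the highest Scrublet scores, 348 in all, were removed as doublets at a rate of 0.8% per 1000 cells. Counts were summed per hormone class and library (16 sums) and fitted in edgeR 4.0.16 (R 4.3.3) with TMM scaling, filterByExpr, quasi-likelihood tests and Benjamini-Hochberg adjustment over 11675 genes, with terms for library and class. On simulated counts for 11675 genes, 87% of genes changed 2-fold and 46% of genes changed 1.41-fold were recovered for β against α. The same shares were 86% and 42% for β against δ, and 81% and 33% for β against PP. With 1 library a group, group ratios have Clopper-Pearson counting intervals and no test. PCR duplicates were collapsed by UMI, and intervals cover counting error only.

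The 9 genes and the lists were chosen with earlier results of these data known. Besides the 9 genes, the 3 largest called differences in each direction per list, the relatives of the 9, and the 5 genes of most similar pattern could be named, and sub-clusters by their leading genes and identity markers. The 5% hormone threshold, the interaction test, the plain class totals between classes, the diet counts past 1.5-fold, the immediate early list and the omission of cells in unnamed clusters were chosen after seeing the data. Alternatives covered scaling, filters, dominance, doublets, ambient RNA, DESeq2 1.42.0 and omission of each library. No deposited counts column was left unassigned.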

Additional observations from a re-analysis of the deposited data

Results flagged for a closer look

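The diet ratio of Rab3a stood out in 2 ways. In the β class its log2 ratio of HFD over SCD was 0.10 in WT and -0.10 in HH, opposite in sign with counting intervals clear of 0 in each. That difference between genotypes was not tested, since each group is 1 library. It rests on which cells are counted, because without the β class cells in unnamed clusters, 820 of 2039 in WT SCD and 11 of 1142 in WT HFD and mostly with β markers, the WT ratio was -0.03 and the HH ratio -0.13. The second is the diet effect in β minus that in α cells, -0.76 by the edgeR interaction (adjusted p = 0.000537), with the α class level higher under HFD in both genotypes. Age differs along with diet and cannot be told apart from it.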

How the results depend on the processing

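The member results between classes kept their direction and side of the threshold in 410 recomputed values, 8 lost the call, 2 gained one and 12 turned sign. Of the 12, 9 came from plain class totals, with no scaling factor between classes: against α cells Snap25 -0.032 and Vamp2 -0.083, against δ cells Snap25 -0.14, Vamp2 -0.55, Syt7 -0.41, Rab3a -0.13 and Rab27a -0.71, and against PP cells Vamp2 -0.057 and Syt7 -0.025. There the median of all genes was -0.58, -0.96 and -0.29, and 14.3%, 6.55% and 25.4% of all calls were higher in β. The other 3 were not calls: Syt7 in β against α was 0.037 and Snap25 in β against PP 0.024 with library sizes taken without hormone and mitochondrial genes, and Snap25 in β against PP was 0.045 with no low-count filter. Leaving out 1 library at a time gave 8 to 8 called members against α, 8 to 9 against δ and 6 to 8 against PP. The Sytl4 log2 difference ranged over all alternatives from 5.45 to 9.47 against α, 5.34 to 8.99 against δ and 5.56 to 8.50 against PP, highest with ambient RNA subtracted. With library sizes taken without hormone and mitochondrial genes, the share of β against α calls that were higher in β was 66.7% instead of 51.9%, and the median of all genes moved from 0.01 to 0.17. Class-total CPM moved the median HH over WT ratio of all genes in β cells under HFD by -0.14.

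For ratios, the Stx1a value of HH over WT in δ cells under SCD became 0.028 at 80% dominance. The counts of members past the fold moved as follows. Past 1.5-fold, 0 remained for HH over WT in α under SCD, in δ under SCD and in δ under HFD, from 1 each, in PP under SCD from 2, and for HFD over SCD in β cells of HH from 1. The diet counts past 1.5-fold were 1 in WT and 2 in HH in α cells, from 3 each, 0 in δ cells, from 1 and 2, and 1 and 0 in PP cells, from 5 and 4. In δ under SCD the count was 0 with the looser cell filter and 2 with no dominance minimum. In δ under HFD it was 2 with equal weight per cell and 2 at 80% dominance. For HFD over SCD in β cells it was 2 in WT with the looser filter, and 2 in HH with class-total CPM or with library sizes without hormone and mitochondrial genes. The cause was not tested. No paired analysis was possible because each group is 1 library and the labels give no shared replicate numbers. Depth limits Stx1a in all classes and Sytl4 and Cadps where they are near 0.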
